A study of Mus musculus with 4 samples.

Results

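The genes described here are 44 regulators and effectors of the cell cycle, taken as a fixed list of symbols. Each was examined over its gene body with 5 kb on either side in a whole-genome bisulfite sequencing table from mouse hair matrix keratinocytes, dividing epithelial cells of the follicle bulb. All 44 symbols matched a protein-coding gene of the RefSeq annotation, out of 21883 such genes, and they lie on 18 chromosomes. The cells were primary cells from mice at postnatal day 4.5. The WT group had 2 libraries, and the other group had 2 libraries labelled Tet2/Tet3 DKO with Krt14-Cre, here called DKO. Krt14 is a keratin of basal and follicle epithelium, so its promoter places Cre in those cells and in their progeny. The labels leave out whether WT animals carried Cre or unrecombined target alleles, and how many animals gave each library.

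TET enzymes oxidise 5-methylcytosine, which can lead to its removal, and bisulfite sequencing reads 5-methylcytosine and 5-hydroxymethylcytosine alike. Each level below is the authors' mean for a group over a listed region, in percent, and each difference is DKO minus WT in percentage points. Values per library and read depth were not used here, so no difference has a replicate check and no test was made. The first group of the table was read as WT because its title names WT first. If that order were the opposite, every direction below would turn. The table lists 484555 regions by a rule that no source used here states, so a place with no listed region has no level here. Expression was not measured, and the labelled cell type could not be checked against expressed markers. Among genes of follicle epithelium, regions with a DKO level 20 or more points above the WT covered 28.9% of the window of Krt14, 21.9% of Dlx3, 17.3% of Msx2, 11.8% of Lef1, 6.47% of Krt5 and 0% of Hoxc13.

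The cell cycle is driven by cyclins bound to cyclin-dependent kinases (CDKs). D and E cyclins with Cdk4, Cdk6 and Cdk2 phosphorylate the pocket proteins Rb1, Rbl1 and Rbl2, which releases E2f transcription factors to switch on genes of DNA replication, and CDK inhibitors oppose this step. Cyclin A and cyclin B with Cdk1 then drive S phase progression and mitosis. Matrix keratinocytes divide fast before they differentiate into the layers of the hair shaft and inner root sheath. The members were divided into 26 regulators (cyclins, CDKs, CDK inhibitors, pocket proteins, E2f and Myc factors) and 18 genes of replication and mitosis (Mcm helicase subunits, Pcna, Mki67, mitotic kinases and checkpoint genes, Top2a, Birc5 and the Cdc25 phosphatases).

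No promoter window of the 34 members with an annotated promoter held a region 20 or more points higher in the DKO. This is near the 2.33% of all promoter windows that did. The 4 promoters shown were chosen after their values were seen. Each lies wholly or partly in a listed region under 4% methylated in both groups, and each has regions at least 20 points more methylated in the DKO within 2 kb of that low region. The sequences are the bases upstream of the outermost annotated start, at most 250, from RefSeq (GRCm38.p6), read 5′ to 3′ along the gene's strand. Capitals mark letter matches, on either strand, to an E2F motif (TTTCCCGC, TTTCGCGC, TTTGCCGC or TTTGGCGC), to the cell cycle homology region motif (TTTGAA or TTCGAA) and to CCAAT, where overlapping matches were counted apart.
Mycn, chr12:12941837-12942086, minus strand: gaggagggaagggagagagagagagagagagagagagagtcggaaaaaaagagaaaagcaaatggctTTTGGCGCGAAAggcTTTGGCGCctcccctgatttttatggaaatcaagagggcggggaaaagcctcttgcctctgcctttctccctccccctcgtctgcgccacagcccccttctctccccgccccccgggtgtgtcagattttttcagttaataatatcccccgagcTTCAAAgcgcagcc
Mcm6, chr1:128359706-128359955, minus strand: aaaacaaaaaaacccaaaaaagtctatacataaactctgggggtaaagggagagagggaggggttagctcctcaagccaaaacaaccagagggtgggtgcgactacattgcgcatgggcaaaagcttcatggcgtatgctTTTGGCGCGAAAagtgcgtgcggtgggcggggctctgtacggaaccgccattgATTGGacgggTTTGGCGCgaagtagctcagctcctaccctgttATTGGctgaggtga
Cdc20, chr4:118437344-118437593, minus strand: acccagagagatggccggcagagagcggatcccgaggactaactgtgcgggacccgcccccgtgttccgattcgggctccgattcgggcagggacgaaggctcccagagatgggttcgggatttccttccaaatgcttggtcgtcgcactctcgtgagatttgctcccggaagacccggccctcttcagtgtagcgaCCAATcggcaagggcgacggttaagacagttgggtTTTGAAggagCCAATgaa
Mki67, chr7:135716451-135716629, minus strand: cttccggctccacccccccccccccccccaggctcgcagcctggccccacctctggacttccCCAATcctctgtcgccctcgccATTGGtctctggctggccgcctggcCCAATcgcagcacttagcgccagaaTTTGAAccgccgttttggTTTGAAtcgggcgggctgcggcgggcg

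The Mycn stretch held 3 E2F matches and 1 to the cell cycle homology region motif. That of Mcm6 also held 3 E2F matches, with 2 to CCAAT. The Mki67 stretch held 2 matches to the cell cycle homology region motif and 3 to CCAAT, and that of Cdc20 held 1 and 2 of these. Of the 44 members, 34 had an entry in the promoter table, with 41 promoters of 250 bases before a start. An E2F match was in 10 of these 41 (24.4%), against 2.35% of 21262 promoters of protein-coding genes. The cell cycle homology region motif was in 12 of 41 (29.3%, against 15.9%). CCAAT was in 15 of the 16 promoters of replication and mitosis genes (93.8%) and in 9 of the 25 of regulators (36.0%), against 35.4% of all promoters. These are letter matches and not measured binding. The E2F letters hold a CpG, the dinucleotide whose methylation was measured, and CCAAT holds none. The members' promoters had a median of 18 CpGs in the 250 bases, against 10 for all promoters. The shares with an E2F match were not adjusted for this.

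Most cell cycle genes held regions that were more methylated in the DKO, and none held a large loss. A region whose DKO level exceeds the WT by 20 points or more, called a gained region below, lay in the windows of 40 of the 44 members (90.9%), while 64.4% of all protein-coding gene windows held 1. No member held a region at least 10 points lower, against 8.5% of all windows. The members' windows held 463 listed regions, of which 165 (35.6%) were gained, against 26.2% of the listed regions in all gene windows and 22.9% of all listed regions. None of the 463 lay in the windows of more than 1 member. The members had a median window of 23685 bp, against 27169 bp for all genes, and 35 of the 44 (79.5%) held more than 1 gained region, against 49.2% of all genes. Of the 165 gained regions, 19 also overlapped another protein-coding gene, so they cannot be assigned to the member alone. Regions near the 20-point limit were those of Ccnd3 (40.3% (WT) and 60.2% (DKO), 19.8 points) just below it and of Top2a (69.7% and 90.0%, 20.2 points) just above it.

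Regulators held gained regions about as often as replication and mitosis genes, but these covered more of their windows. Gained regions lay at 24 of the 26 regulators and at 16 of the 18 replication and mitosis genes, against 64.4% of all genes. They covered a median of 5.85% of the regulators' windows (interquartile range 0.706 to 10.1) and 2.95% of those of replication and mitosis genes (0.445 to 5.11), against a median of 1.29% over all genes (0 to 4.18). Both ranges overlap widely, and the members are not replicates of a condition, so this difference was not tested. It turned with a limit of 30 points, where the medians were 0.824% for regulators and 1.36% for replication and mitosis genes. The share of listed regions that were gained was alike, at 35.5% of 341 for regulators and 36.1% of 122 for replication and mitosis genes. Over all gene windows that share was 26.2%. Listed regions were denser at regulators, with 3.14 per 10 kb of window, against 2.62 for replication and mitosis genes and 2.25 for all genes. By gene, 16 of 26 regulators and 9 of 18 replication and mitosis genes lay above the mean coverage of all genes, which was 2.67%, as did 36.5% of all genes.

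**Figure D1:**
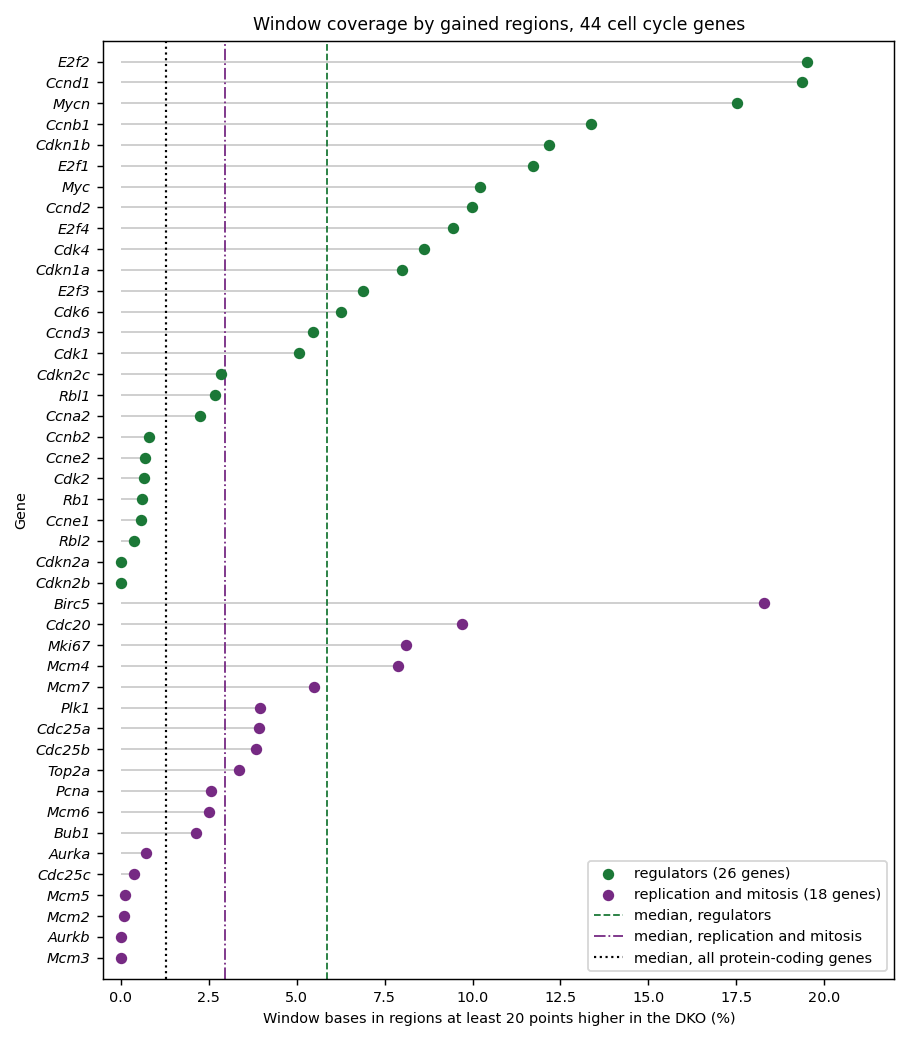
Percent of each gene's window (gene body plus 5 kb on either side) covered by gained regions (DKO level 20 or more points above the WT), for 26 regulators (green) and 18 replication and mitosis genes (purple). Vertical lines are medians, 5.85% for regulators, 2.95% for replication and mitosis genes and 1.29% for all protein-coding genes. E2f2, Ccnd1, Birc5 and Mycn lie above 17%, and Cdkn2a, Cdkn2b, Mcm3 and Aurkb lie at 0%.

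Gained regions of both classes were at intermediate levels in the WT, and those of replication and mitosis genes had lower medians in both groups. Gained regions of the regulators had a median WT level of 44.9% (interquartile range 33.7 to 52.8) and a median DKO level of 76.2% (66.9 to 83.5). Those of replication and mitosis genes had medians of 41.1% (29.9 to 49.3) and 71.3% (63.6 to 79.4). With the gene body only, the order of the DKO medians turned, to 76.2% for regulators and 76.7% for replication and mitosis genes. The median gain was 28.2 points and 29.6 points, and over all gained regions of the table it was 28.4 points, with medians of 45.6% and 76.3%. Over all their listed regions, regulators had median levels of 65.5% (WT) and 80.95% (DKO), replication and mitosis genes 70.8% and 83.03%. Most listed regions that were intermediate in the WT were gained. Of the 158 listed regions of members at 20% to 60% in the WT, 140 were gained (88.6%), against 81.0% of such regions in all gene windows and 79.1% of all listed regions of that level. These shares cover listed regions and do not describe all sequence at such levels. The authors' statistic was -4.02 or lower in every gained region of the members and 1.53 or higher in most of their other listed regions. The limits for listing thus appear to differ by direction, and these shares cannot be separated from that unstated rule.

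**Figure D2:**
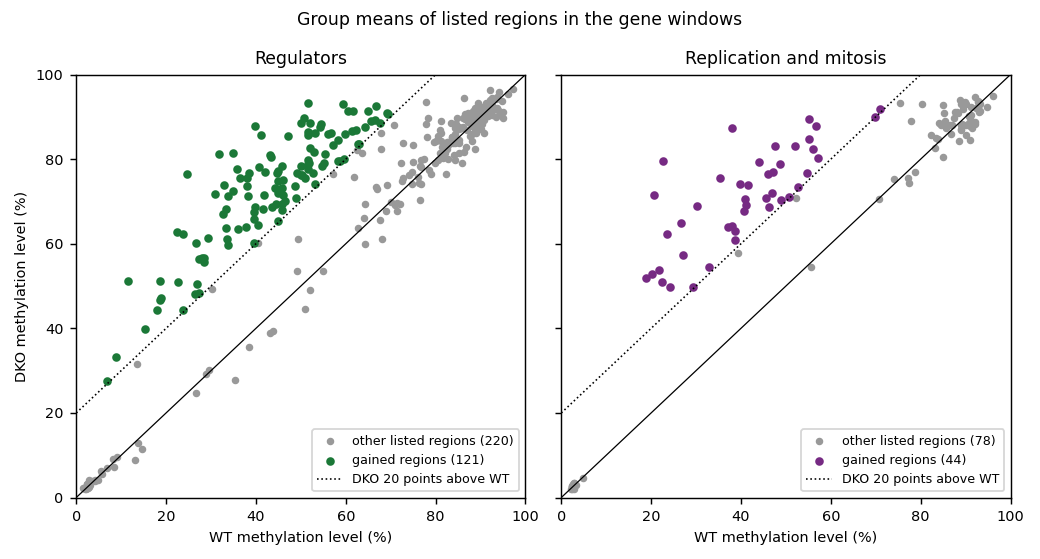
WT level (horizontal) against DKO level (vertical), in percent, of each listed region in the windows of 26 regulators (left) and 18 replication and mitosis genes (right). Points are group means of single regions. The 121 and 44 gained regions lie above the dotted line, mostly at WT levels of 20% to 60%, and regions near 0% lie on the diagonal.

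The D cyclins, which couple growth signals to CDK activity in G1, held gains inside their genes. Ccnd1 had 3 gained regions over 19.4% of its window, at 51.7%, 59.8% and 32.7% (WT) and 78.9%, 85.8% and 66.9% (DKO). The first is 2869 bp long (95 positions), runs across a gene end (chromosome 7, 144928727 to 144931595) and reaches the neighbouring gene LTO1. Ccnd2 had 4, and the widest difference was inside the gene at chromosome 6, 127143079 to 127143884, at 31.7% (WT) and 81.3% (DKO) (49.5 points). Ccnd3 had 12, and the largest gain was from 38.4% (WT) to 76.8% (DKO). The E cyclins, which act at the start of S phase, differed over shorter stretches, with coverage of 0.574% for Ccne1 and 0.674% for Ccne2. The largest gain of Ccne2 lay 366 bp outside the gene, from 38.1% (WT) to 75.6% (DKO) over 158 bp. The single gained region of Ccne1 was at 27.3% and 48.3%.

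Among cyclins of S phase and mitosis, Ccnb1 held the widest coverage. A region of 1783 bp inside Ccnb1 (chromosome 13, 100783624 to 100785406) was at 44.8% (WT) and 74.8% (DKO), and another upstream of it was at 28.3% and 55.6%, so gained regions covered 13.4% of its window. Ccna2 had 4 gained regions over 2.26%, 3 of which also overlapped another gene, and Ccnb2 had 2 over 0.804%. Their largest gains were from 51.0% to 75.5% at Ccna2 and from 28.1% to 56.7% at Ccnb2. The kinases followed the same pattern of levels. Cdk6, which has the longest gene of the list, held 27 of the 121 gained regions of the regulators, with up to 46.7 points (34.8% (WT) and 81.5% (DKO), chromosome 5, 3355493 to 3356695, inside the gene). Its coverage was 6.26%, and without it the regulators' median was 5.45%. At Cdk4 all 3 gained regions lay outside the gene, and the largest gain was 2138 bp upstream, at 18.7% (WT) and 51.1% (DKO). Cdk1, the mitotic kinase, had a gained region across its 3′ gene end at 45.8% and 73.3%. The 2 gained regions of Cdk2 held at most 3 positions and each also overlapped another gene, with the larger gain from 35.98% to 63.4%.

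The CDK inhibitors divided by locus. Cdkn1b, which encodes p27, had 4 gained regions over 12.2% of its window, at 36.5%, 11.6%, 22.4% and 32.9% (WT) and 75.4%, 51.1%, 62.8% and 73.8% (DKO). The gains of these 4 regions were alike, between 38.97 and 40.9 points. Cdkn2c, which encodes p18, had a region inside the gene at 39.7% (WT) and 87.9% (DKO) (48.2 points, 10 positions). Cdkn1a, a target of p53 that encodes p21, had 1 gained region, of 1581 bp inside the gene, at 55.5% and 81.3%. Cdkn2a and Cdkn2b, neighbours on chromosome 4 that encode further inhibitors, held none. All 5 listed regions of Cdkn2a were lower in the DKO, with differences from -7.47 to -1.27 points. Those at -7.47, -4.22 and -1.27 points lay outside the gene, 2814, 3751 and 4162 bp downstream. Those at -4.17 and -6.45 points lay inside it. The authors' spread estimates for all 5 regions of Cdkn2a were 3.31 to 4.15 points. The WT levels of 4 of these regions were 35.2% to 54.9%, the range in which most listed regions of the members were gained. The 5 listed regions of Cdkn2b differed by -3.09 to 8.20 points. Both genes thus accounted for 5 of the 18 intermediate regions of members that were not gained.

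The pocket proteins differed in coverage, with Rbl1 above the median of all genes and Rb1 and Rbl2 below it. Gained regions covered 0.607% of the window of Rb1, with 9 regions inside a gene of 133094 bp, 2.66% of that of Rbl1 and 0.367% of that of Rbl2. The largest of them by difference was 922 bp upstream of Rbl1, at 51.6% (WT) and 85.7% (DKO). At Rb1 the largest gain was from 26.7% to 60.2%, and at Rbl2 from 63.0% to 83.5%. All 4 E2f factors had higher coverage than these 3 genes. E2f2, an activator E2f, had the highest coverage of the list at 19.5%, which exceeded that of 99.6% of all genes. Upstream of E2f2, a region of 3800 bp with 115 positions (chromosome 4, 136167542 to 136171341) was at 44.9% (WT) and 77.2% (DKO). A further 5 gained regions lay inside the gene, at 33.7%, 48.6%, 29.4%, 38.3% and 6.77% (WT) and 59.7%, 73.6%, 61.4%, 71.2% and 27.4% (DKO), and 1 lay 122 bp beyond its end at 42.0% and 76.9%. E2f1 (11.7%), E2f4 (9.45%) and E2f3 (6.89%) also lay above the median of all regulators. At E2f1 the largest gain was from 28.4% to 56.5% and at E2f4 from 46.0% to 71.5%. The largest gain at E2f3 was 41.6 points, from 51.7% to 93.3% inside the gene.

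Myc and Mycn, transcription factors that promote growth and division, were covered at 10.2% and 17.5%. At Mycn a region of 2304 bp and 137 positions across the 3′ end of the gene (chromosome 12, 12935821 to 12938124) was at 24.7% (WT) and 76.6% (DKO), the largest gain among the regulators at 51.9 points. Upstream of Mycn, 1491 bp from its start, a second region was at 35.8% and 77.6%. At Myc, 3 of the 4 gained regions lay outside the gene and 1 inside, and the largest gain was from 45.9% to 78.4%. The 4 regions had WT levels of 39.5% to 52.1%, with DKO levels of 67.6% to 82.7%.

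**Figure D3:**
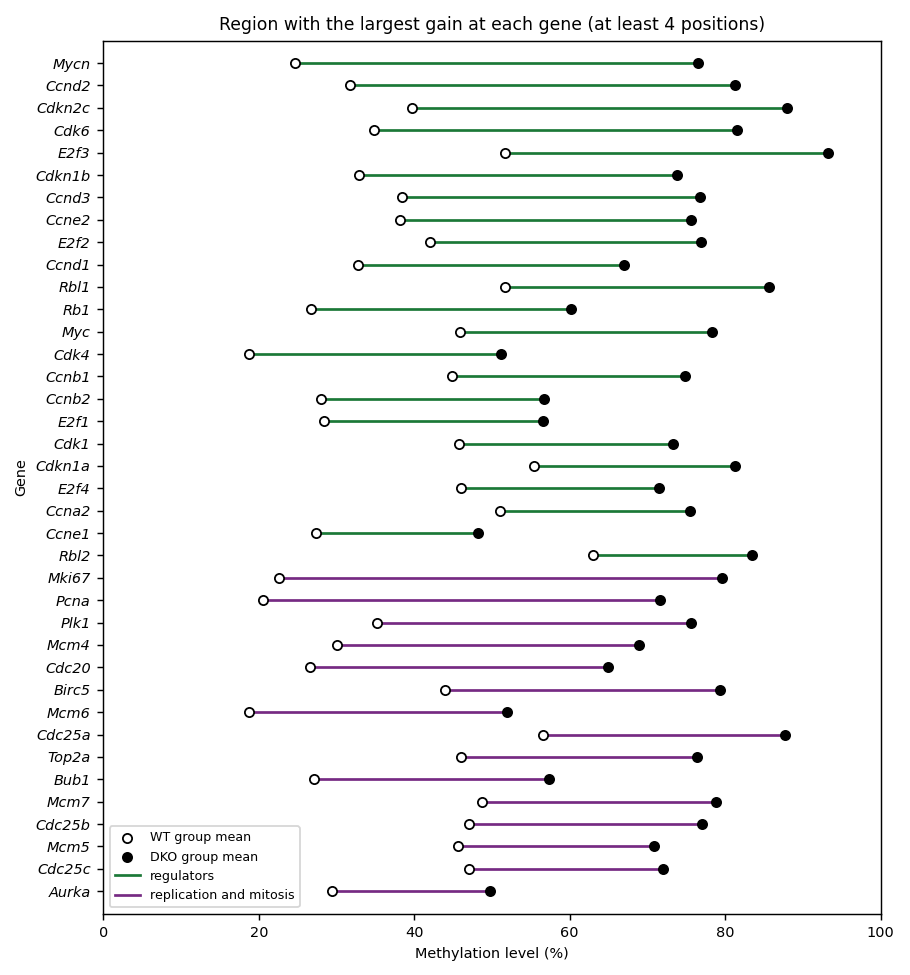
Region with the largest gain among gained regions of at least 4 positions, for the 38 members that had 1, by gene (vertical) and methylation level in percent (horizontal). Open circles are WT group means, filled circles DKO group means, and line colour gives the class. WT levels run from 18.7% to 63.0% and DKO levels from 48.3% to 93.3%.

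Of the replication genes, 6 of 7 held gained regions, against 64.4% of all gene windows. The Mcm2 to Mcm7 proteins form the helicase that is loaded at origins, and their genes had 0 to 3 gained regions each. Mcm4 had the highest coverage among them (7.89%), with a region of 1394 bp located 2898 bp outside the gene at 30.1% (WT) and 68.9% (DKO). Mcm7 followed with 5.49% and a region inside the gene at 48.7% and 78.8%. Mcm6 had gained regions on both sides of its start, at 22.4% and 51.0% upstream and at 18.8% and 51.9% inside the gene. The largest gain at Mcm5 was from 45.7% to 70.9% over 4 positions. At Mcm2 (0.0751%) and Mcm5 (0.110%) gained regions were a few positions wide and lay outside the gene, with the larger gain at Mcm2 from 48.8% to 70.2% over 3 positions. Mcm3 held only 2 listed regions, at 92.0% and 90.1% (WT) and 88.4% and 85.8% (DKO). At Pcna, the sliding clamp of DNA polymerase, a region of 61 bp and 4 positions 1058 bp upstream was at 20.6% (WT) and 71.6% (DKO). That region also overlaps Cds2.

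The largest gain of the whole list lay inside Mki67, which encodes the proliferation marker Ki-67. There, 4 gained regions lay within a stretch from 135696369 to 135699933 on chromosome 7, at 55.1%, 55.1%, 38.0% and 22.6% (WT) and 84.8%, 89.6%, 87.4% and 79.6% (DKO). The last of these differed by 57.04 points. A further gained region nearer the start was at 47.5% and 83.03%, and 1 of only 2 positions lay 981 bp upstream at 23.6% and 62.2%. All 18 listed regions of Mki67 had a higher mean in the DKO, as did 54.7% of listed regions in all gene windows. Only 6 of the 18 were gained, and the others differed by 0.559 to 12.7 points. The smallest difference lay below the authors' spread estimate for that region, 3.40 points. Differences of 2.50, 2.53 and 2.73 points also lay below the estimates for their regions, which were 3.34, 3.86 and 3.42 points. In the regions not gained, the authors' statistic had the opposite sign to that of the gained regions.

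Apart from the Cdc25 phosphatases, 7 genes of mitosis held 17 gained regions, more of them outside the gene than inside it. Their median window was 20450 bp, including 5 kb on either side. The share of window bases inside the gene was not computed for this list. Birc5, which encodes survivin of the chromosomal passenger complex, had 3 gained regions, all upstream, from 117844404 to 117848162 on chromosome 11. They were at 44.002%, 39.9% and 20.2% (WT) and 79.3%, 74.2% and 52.9% (DKO), and covered 18.3% of the window, more than in 99.5% of all genes. At Cdc20, an activator of the anaphase-promoting complex, 2 gained regions lay inside the gene (52.1% and 33.0% in the WT, 83.03% and 54.6% in the DKO) and 2 downstream, within Elovl1, at 26.6% and 21.8% (WT) and 65.0% and 53.7% (DKO). Plk1, a mitotic kinase, had a region inside the gene at 35.2% (WT) and 75.6% (DKO) (40.3 points). The largest gain at Top2a, which untangles sister chromatids, was from 46.1% to 76.4%. At Bub1, a kinase of the spindle checkpoint, it was from 27.1% to 57.4%, and at the mitotic kinase gene Aurka from 38.7% to 63.03% over 2 positions, in a region that also overlaps Cstf1. Among gained regions of at least 4 positions the Aurka levels were 29.4% and 49.7%. Aurkb held 2 listed regions, both outside the gene, at 90.1% and 92.1% (WT) and 88.0% and 88.8% (DKO). The Cdc25 phosphatases, which activate CDKs, had similar coverage for Cdc25a (3.92%) and Cdc25b (3.84%), and 0.360% for Cdc25c. The largest gain at Cdc25a was from 56.6% to 87.7% and at Cdc25c from 47.0% to 72.1%. At Cdc25b it was from 41.6% to 73.99% over 2 positions, and among regions of at least 4 positions from 47.1% to 77.1%.

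Regulators held most of their gained regions inside the gene, and replication and mitosis genes held fewer there. Of the regulators' 121 gained regions, 91 (75.2%) lay inside the gene, against 19 of 44 (43.2%) for replication and mitosis genes. Gene bodies made up 76.1% and 61.3% of the window bases. Per base, gained regions covered 5.61% of gene bodies and 5.11% of flanks of regulators. For replication and mitosis genes they covered 2.95% of gene bodies and 4.70% of flanks, and for all genes 2.56% and 2.64%. Cdk6 alone held 26 of the 91 gained regions inside regulators. Without Cdk6, gene bodies made up 71.8% of the regulators' window bases. Gained regions then covered 5.32% of their gene bodies and 5.30% of their flanks. Within gene bodies alone, the median coverage was 6.16% for regulators and 1.32% for replication and mitosis genes, and these counts were not tested.

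Around the start of many members lay a region with almost no methylation, with gained regions nearby. Of the 34 members with a known strand, 20 (58.8%) had a listed region under 20% in the WT within 250 bp of the start, against 26.2% of all gene starts. These regions had WT levels of 2.09% to 6.92% and DKO levels of 2.02% to 7.09%, and no region differed by more than 0.749 points. In 18 of these 20 a gained region lay within 2 kb of the low region's edge, against 62.7% of all gene starts in such a region, and in 11 (55.0%) gained regions lay on both sides, against 16.6% of those gene starts. The nearest gained region of these 18 was 282 to 922 bp away, with a median of 521 bp. At Mycn the low region was 4610 bp long with 443 positions, at 2.50% (WT) and 3.12% (DKO), and the nearest gained region was 282 bp away. At Mki67 it was 1919 bp long, at 2.54% and 3.10%, at Mcm6 711 bp, at 2.79% and 3.41%, and at Cdc20 1424 bp, at 2.69% and 2.57%. Mcm5 and Cdkn2b were the low starts with no gained region within 2 kb.

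**Figure D4:**
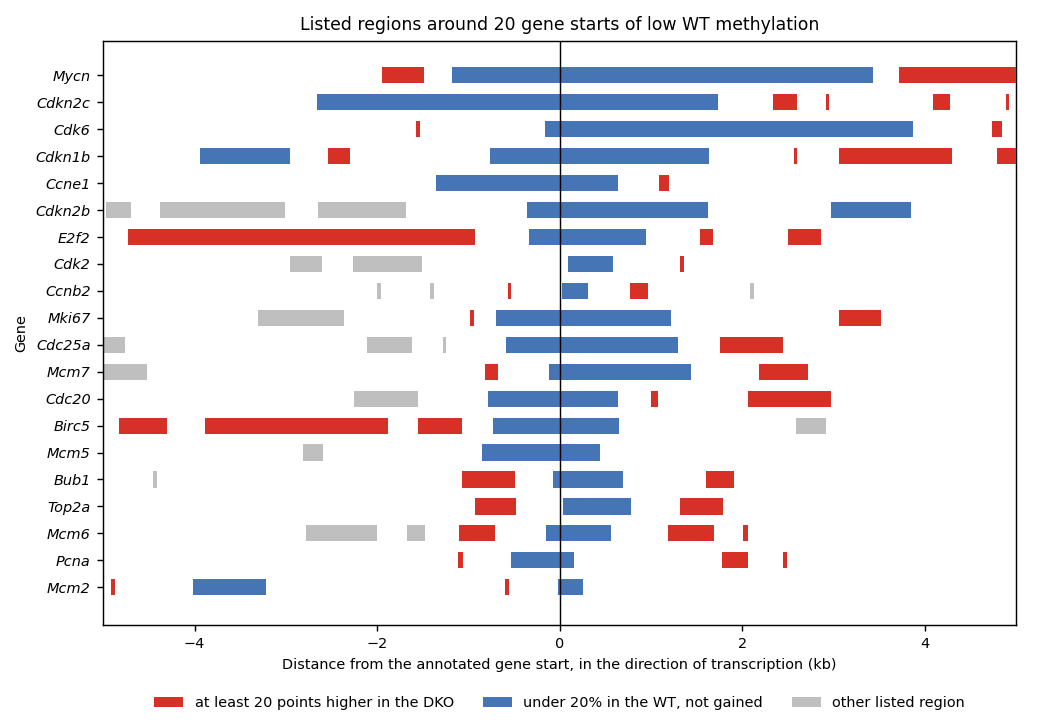
Listed regions within 5 kb of the annotated start for the 20 members whose start lies in or beside a region of low WT methylation. The horizontal axis is distance in kb along the direction of transcription, red bars are gained regions, blue bars are regions under 20% in the WT that were not gained, and grey bars are other listed regions. In 18 of the 20 a red bar lies within 2 kb of the blue bar at the start.

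Gained regions were rare in promoter windows, of members as of all genes. None of the 41 promoter windows (250 bp before to 50 bp after a start) of the 34 members with an entry overlapped 1. This is near the 2.33% of all promoter windows that did. Within 1 kb of the start, 12 of the 34 members held a gained region, namely Ccnd3, Ccnb1, Ccnb2, Rbl1, E2f2, Mcm2, Mcm6, Mcm7, Mki67, Top2a, Bub1 and Cdc20, against 14.4% of all gene starts. The members' promoters had a median of 18 CpGs in 250 bp, and those of all genes had 10. A WT level under 20% was found in 9 of the 165 gained regions (5.45%), near the 4.20% over gained regions in all gene windows. Among these were regions of Cdkn1b (11.6% WT, 51.1% DKO), Ccnd3 (15.4% and 39.9%) and E2f2 (6.77% and 27.4%), each inside the gene.

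Other genes of the cell cycle were taken from a list that held no member. Of 102 such genes, 101 matched the annotation, and 81 of these (80.2%) held a gained region, against 64.4% of all gene windows. The median coverage of the 101 genes was 2.21%, against 3.88% for the members and 1.29% over all genes. As a percent of listed positions the order turned, with medians of 18.4% for the other genes and 16.2% for the members, and neither difference was tested. By class, 32 of 39 other regulators and 49 of 62 other replication and mitosis genes held 1, with median coverage of 2.32% and 2.03%. A region at least 10 points lower in the DKO lay at 4 of the 101, against 8.5% of all gene windows. These 4 were Orc5, Tyms, Pola1 and Cdkn3, with differences from -14.1 to -10.3 points. Among gained regions of at least 4 positions, the largest gains of other regulators were at Wee1, a kinase that inhibits Cdk1 (24.97% WT, 84.2% DKO, 2119 bp outside the gene), Tfdp2, a partner of E2f factors (42.1% and 94.3%, inside), and Ccng2, an atypical cyclin (34.1% and 83.2%, downstream). Among other replication and mitosis genes they were at the thymidine kinase gene Tk1 (28.4% and 87.2%, 3581 bp downstream), the condensin gene Ncapg (38.02% and 90.99%, inside) and the licensing gene Cdc6 (25.7% and 69.99%, across an end).

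For the largest gains of the 38 members with a gained region of at least 4 positions, the authors' deposited table gives spread estimates of 3.23 to 4.72 points. These gains were chosen for their size, so that they exceed the estimates follows from the choice and is no test.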

How the data were processed

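Whole-genome bisulfite libraries from 2 WT and 2 DKO samples were compared, as the genotype labels name them. Per the submitters' processing notes, which give no versions or settings, Trim Galore and Bismark were used with the build GRCm38 (mm10). No source used here names the caller of the regions or its smoothing. Per the file headers, the deposited table gives each region's mean methylation level per group as a fraction, printed here as percent. It also holds a signed difference, a statistic and a spread estimate. The difference and the statistic are score values that the authors computed before deposit, per the file headers. Differences were taken here from the fractions, and the statistic is mentioned only for the listing of regions and for Mki67. The columns hold no value per library, so fits without single libraries or with a replicate block were not run.

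Regions overlapping each gene body plus 5 kb were counted with Python 3.11.15, numpy 2.4.6 and pandas 2.3.3, and the figures drawn with matplotlib 3.10.9. Gene positions and promoters came from RefSeq tables of GRCm38.p6. Of 1581 region starts inside promoter windows, 100% lay on a CpG of the promoter sequence, counted from 1. The window counts were tested on simulated data. Members and lists were chosen with earlier results of these data known. Every member is accounted for. Values go to the largest gain of each member among regions of at least 4 positions (and to a region of fewer positions for Cdk2 and Mcm2, which have no other, and for Aurka and Cdc25b), the 3 members of each class with the highest coverage, and the 3 largest gains of each class of other genes. Further regions were named after their values were seen. Alternatives were 10 or 30 points, the gene body alone or with 10 kb, at least 10 positions, merging within 500 bp, the share of listed positions and 2 other class borders. The list without Cdk6 was added after seeing the data.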

Additional observations from a re-analysis of the deposited data

How the results depend on the processing

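Of 101 values recomputed under other settings, 88 stayed within 1.5 times the reported value, or for levels within 3.65 points, the median spread estimate of gained regions. The direction between the classes in median coverage held at 10 points, with the gene body only, with 10 kb flanks, with at least 10 positions, with merging, as a percent of listed positions, with both other class borders and without Cdk6, and turned at 30 points. With a minimum of 30 points, 15 of 26 regulators, 12 of 18 replication and mitosis genes and 47 of 101 other cell cycle genes held a gained region. The order of the 2 classes by share of genes thus also turned, and the share over all genes at that limit was not computed. Members then held 67 gained regions, and median coverage was 0.824% for regulators and 1.36% for replication and mitosis genes. The regulators' median WT level was 40.2% and the other class's median DKO level 75.6%. With at least 10 positions there were 91 gained regions, and the median coverage of replication and mitosis genes was 1.74%. With the gene body only, that median was 1.32% and the median DKO level 76.7%. As a percent of listed positions, the medians were 18.4% and 13.7%, against 12.0% over all genes. No member held a loss of 10 points or more with 10 or 30 points, other windows, at least 10 positions or without Cdk6, and merging was not run for it. No paired analysis was possible because the table has no values per library. Read depth is unknown, so no interval could be given.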
